A study of Drosophila mauritiana and Drosophila melanogaster and Drosophila simulans with 12 samples.

Results

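Eye-antennal imaginal discs of *D. mauritiana* were compared with those of *D. melanogaster*. These discs are epithelial sacs of the larva that give rise to the compound eyes, the ocelli, the antennae, the maxillary palps and most of the head capsule of the adult fly. The *D. melanogaster* samples came from the strain OreR (Oregon R) and the *D. mauritiana* samples from the strain TAM16, so that each species was represented by 1 strain. Both groups were female larvae of the third instar, raised at 25 °C with 30 larvae per vial, and discs were dissected 120 h after egg laying. Each species had 3 biological replicates (A, B and C) with 40 to 50 discs per sample, sequenced as 50 bp single-end reads, and these 6 libraries of the 12 in the series were used.

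The compared genes are those for which reciprocal re-annotation gave a coding sequence in both species with at most 49 bp of length difference. Of 13331 genes in the table of counts, 13260 met this rule, and 8815 of them had models of equal length. The first genes outside the rule differed by 50 bp. The libraries held between 17170747 and 34063962 counts. After genes with low counts had been set aside, 9709 of the length-matched genes were tested and 3551 were not, including 125 without a read in any library. Levels are given as CPM, the counts of a gene per 1000000 counts of its library, after scaling of the libraries by TMM (trimmed mean of M-values), and a positive log2-fold change means a higher level in *D. melanogaster*. A gene was called when the quasi-likelihood test of edgeR gave a Benjamini-Hochberg adjusted p-value below 0.05. Because bulk tissue was sequenced, a difference in the number of cells of a type cannot be told apart from a difference in RNA per cell.

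In the third instar, a wave of differentiation called the morphogenetic furrow moves across the eye part of the disc and leaves rows of photoreceptor clusters behind it. A network of transcription factors that includes Eyeless, Sine oculis and Eyes absent specifies the eye field, and Hedgehog, Dpp, Notch and EGF receptor signals drive the furrow and the recruitment of photoreceptors. Glial cells enter the eye disc from the brain along the optic stalk. Dissected discs can carry pieces of neighbouring organs, among them brain, ring gland, fat body, hemocytes, muscle and salivary gland.

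The discs were recognised in both species by their defining genes. The 11 markers of the eye-antennal disc (*ey*, *toy*, *so*, *eya*, *dac*, *Optix*, *hth*, *Dll*, *ato*, *elav* and *gl*) summed to 1500 to 1810 CPM in *D. mauritiana* and 1690 to 1740 CPM in *D. melanogaster*, and none of them was called. *eya* was present at 413, 475 and 444 CPM in *D. mauritiana* A, B and C and at 420, 465 and 438 CPM in *D. melanogaster* A, B and C.

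The libraries differed in the amount of transcripts from other tissues. The 5 markers of the larval fat body (*Lsp1alpha*, *Lsp1beta*, *Lsp1gamma*, *Lsp2* and *Fbp1*) summed to 4660, 139 and 4140 CPM in *D. melanogaster* A, B and C and to 599, 918 and 1770 CPM in *D. mauritiana* A, B and C. The 6 hemocyte markers, among them *Hml* and *eater*, likewise summed to 1330, 227 and 1150 CPM in *D. melanogaster*, against 464, 261 and 437 CPM in *D. mauritiana*. *D. melanogaster* B thus stood apart from A and C, with the correlation of log2 CPM across genes at 0.957 and 0.965, against 0.993 between A and C. *D. mauritiana* C stood apart from A and B, with correlations of 0.959 and 0.970, and held the lowest sum of the 5 salivary gland glue genes found, 54.7 CPM against 289 and 403 CPM. The 12 genes of the mitochondrial genome summed to 103000 CPM in *D. mauritiana* A and 93500 CPM in *D. melanogaster* B and to between 17900 and 33600 CPM in the other libraries. No marker in these lists was at 0 in all libraries.

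**Figure D1:**
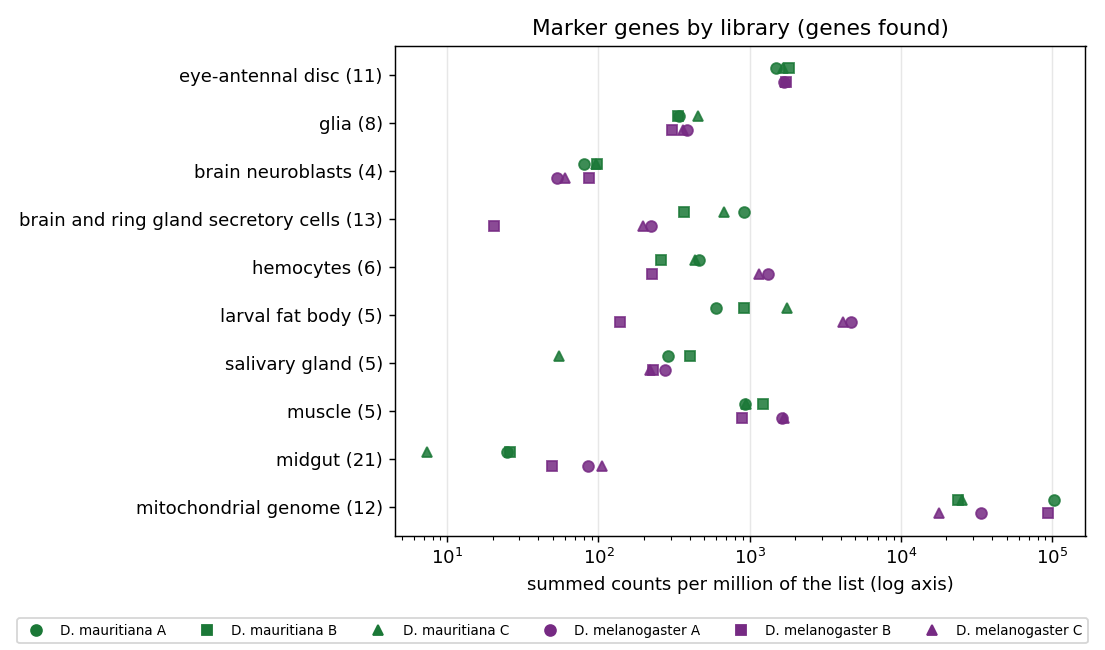
Summed CPM (log axis) of marker gene lists in each of the 6 libraries, with the number of genes found in brackets. Markers of the disc itself lie between 1500 and 1810 CPM, whereas fat body markers range from 139 CPM in *D. melanogaster* B to 4660 CPM in *D. melanogaster* A.

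Between the 2 species, 1757 of the 9709 length-matched genes tested were called, which is 18.1 % of them. Of these, 974 were higher in *D. mauritiana* (10 % of the genes tested) and 783 were higher in *D. melanogaster* (8.06 %). A fold change of 2 or more was reached by 1279 called genes (13.2 % of the genes tested), 737 of them higher in *D. mauritiana* and 542 higher in *D. melanogaster*. A fold change of 16 or more was reached by 95 genes higher in *D. mauritiana* and by 129 genes higher in *D. melanogaster*. The libraries of the 2 species did not overlap for 1755 of the called genes, while they did not overlap for 3651 of all genes tested (37.6 %). The median log2-fold change of the tested genes was 0.01 and the median of its absolute value was 0.32.

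The count of called genes depended on single libraries. It was 841 without *D. melanogaster* C, 976 without *D. melanogaster* A and 1033 without *D. mauritiana* B, against 1892 without *D. melanogaster* B. With both *D. melanogaster* libraries rich in fat body transcripts left out, so that a single library stood for the species and was assumed to vary like the others, 392 genes were called.

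Changes were found more often among genes with few reads. In the quartile of tested genes with the lowest mean count, 31.1 % were called, and the called genes there had a median absolute log2-fold change of 2.73. In the quartile with the highest mean count, 7.46 % were called, with a median absolute log2-fold change of 0.77. The share of called genes was between 14.7 % on chromosome 4 and 20.6 % on the X chromosome, where 200 called genes were higher in *D. mauritiana* and 114 were higher in *D. melanogaster*. The next tested gene along the *D. melanogaster* chromosome was itself called for 22.2 % of the called genes, against 18.1 % of all genes tested.

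**Figure D2:**
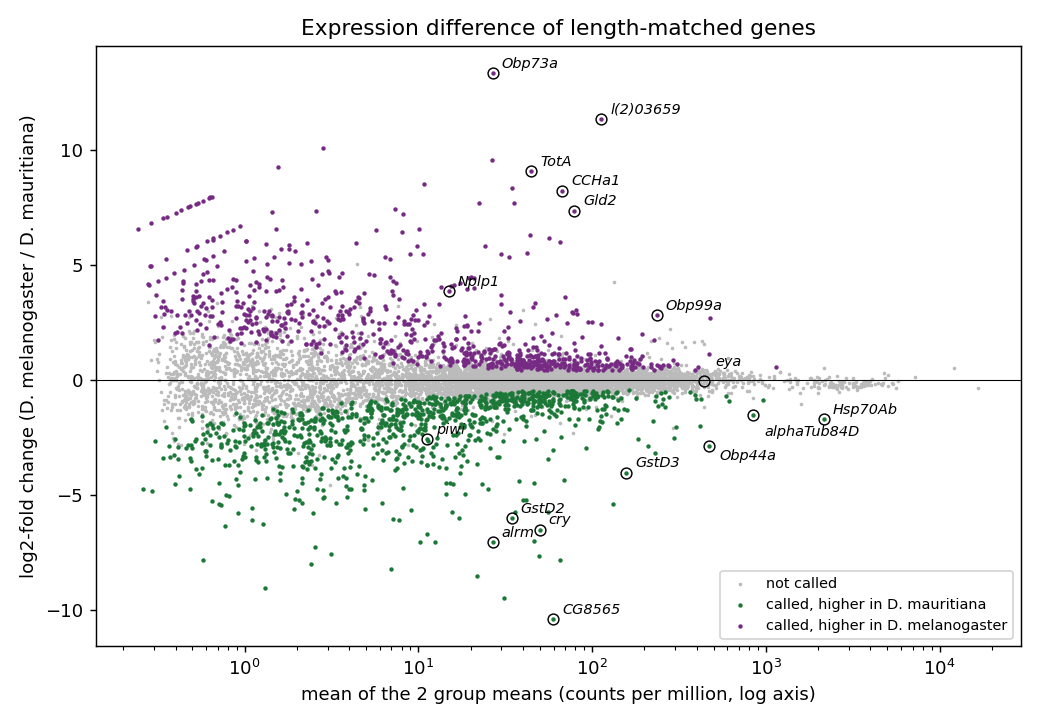
Log2-fold change between the species (positive, higher in *D. melanogaster*) against the mean level in CPM (log axis) for the 9709 length-matched genes tested. Each point is a gene and the circled genes are named in the text. The largest changes lie at low and middle levels, and *eya*, a gene of the eye field, lies at the zero line. *Obp73a* is drawn at its fitted value, which depends on the prior count because it had no count in *D. mauritiana*.

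The largest changes towards *D. mauritiana* belonged to genes that were nearly unread in *D. melanogaster*. Of the called genes that averaged 100 or more counts in the libraries and did not overlap between the species, those with the 12 largest changes were *CG8565*, *CG14153*, *CG43133*, *CG42792*, *scpr-C*, *CG32055*, *alrm*, *Ir7f*, *CG17650*, *CG8539*, *CG14195* and *cry*. *CG8565* was at 146, 125 and 85.3 CPM in *D. mauritiana* and at 0.17, 0 and 0.04 CPM in *D. melanogaster*, that is 8890 counts against 6. Its log2-fold change was -10.38 ± 0.51 (SE, n = 3 per species), with an adjusted p of 5.52e-05 in the quasi-likelihood test of edgeR. The gene lies on the X chromosome of the published *D. mauritiana* genome (14558669 to 14559704, 2 exons), and the compared model holds 34.3 % of the *D. melanogaster* coding length.

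*alrm*, which encodes a leucine-rich repeat protein of astrocyte-like glia, was at 71.2, 40.2 and 48.0 CPM in *D. mauritiana* and at 0.48, 0.49 and 0.24 CPM in *D. melanogaster*. All 3 *D. mauritiana* libraries were far above the others (log2-fold change -7.04 ± 0.38, edgeR adjusted p = 6.45e-05). The gene has 1 exon in *D. mauritiana*, on arm 3R (20444095 to 20445510). *cry* encodes cryptochrome, the blue-light photoreceptor of the circadian clock. It was at 114, 58.9 and 123 CPM in *D. mauritiana* and at 0.65, 2.03 and 0.79 CPM in *D. melanogaster* (log2-fold change -6.50 ± 0.52, edgeR adjusted p = 0.000425). A non-coding gene overlaps its coding sequence in the *D. melanogaster* annotation, and reads of overlapping genes cannot be separated here.

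*CG14153* was at 47.8, 72.7 and 67.2 CPM in *D. mauritiana* and at most 0.12 CPM in *D. melanogaster*. *CG43133* varied within *D. mauritiana*, at 19.1 and 15.7 CPM in A and B and 95.8 CPM in C, yet was at most 0.246 CPM in *D. melanogaster*. *CG42792* had 3 counts over the *D. melanogaster* libraries and 1098 over those of *D. mauritiana*, a ratio of 337 after scaling (exact 95 % Poisson interval 115 to 1630, which covers counting error only). *Ir7f*, a member of the ionotropic receptor family of chemosensory receptors, was at 17.6, 20.2 and 22.9 CPM in *D. mauritiana* and reached 0.43 CPM in *D. melanogaster*. *scpr-C* was at 167, 143 and 79.0 CPM against 0.49 to 0.65 CPM. It belongs to a group of closely similar genes, so that its counts are uncertain, and the other copies were not analysed here.

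The largest changes towards *D. melanogaster* were those of *Obp73a*, *FBgn0010549*, *CG3544*, *TotA*, *Sgs5bis*, *lectin-28C*, *CCHa1*, *CG33509*, *CG17781*, *CG9130*, *Gld2* and *Cyp6t3*. *Obp73a*, an odorant-binding protein gene, was at 53.1, 80.5 and 27.0 CPM in *D. melanogaster* and had no count in any of the 3 *D. mauritiana* libraries. Taking 3 counts over the 3 libraries as the floor, it was at least 1280-fold higher in *D. melanogaster* (edgeR adjusted p = 0.00112). The *Ogdh* gene overlaps its coding sequence on the same strand in the *D. melanogaster* annotation, so part of these reads may belong to that gene. *FBgn0010549*, an ABC transporter gene named by its identifier here and by its symbol in the plots, was at 205, 271 and 202 CPM in *D. melanogaster* and at 0.25, 0.06 and 0 CPM in *D. mauritiana* (log2-fold change 11.38 ± 0.52, edgeR adjusted p = 5.52e-05), on a model that keeps 38.6 % of the *D. melanogaster* coding length.

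*CCHa1* encodes the neuropeptide CCHamide-1, a secreted signal of neurons and gut endocrine cells. It was at 117, 186 and 100 CPM in *D. melanogaster* and at 0.43, 0.62 and 0.22 CPM in *D. mauritiana*, which gave a log2-fold change of 8.25 ± 0.43 and an edgeR adjusted p of 6.29e-05. *Gld2*, a cytoplasmic poly(A) polymerase known from the male germline, was at 133, 199 and 140 CPM against 0.62, 0.82 and 1.31 CPM (log2-fold change 7.38 ± 0.33, edgeR adjusted p = 5.52e-05). *Cyp6t3*, a cytochrome P450 gene, was at 16.2, 17.2 and 15.4 CPM against 0.12, 0.12 and 0.07 CPM. In all these genes every *D. melanogaster* library was above every *D. mauritiana* library, as the rule for naming them required.

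Within *D. melanogaster*, 3 of the 12 genes followed the fat body and hemocyte markers. *TotA*, a stress peptide secreted by the fat body, was at 150 and 113 CPM in A and C but at 4.30 CPM in B, and at 0.31, 0.21 and 0 CPM in *D. mauritiana*. *lectin-28C* was at 109 and 76.4 CPM in A and C and 22.2 CPM in B, and *CG9130* at 22.3 and 16.4 CPM in A and C and 4.91 CPM in B. In B the fat body markers summed to 139 CPM and the hemocyte markers to 227 CPM, below the *D. mauritiana* libraries. All 3 genes were higher in B than in every *D. mauritiana* library, as the rule for naming them required. With B as the only *D. melanogaster* library, the edgeR adjusted p was 0.0209 for *lectin-28C*, 0.0158 for *CG9130* and 0.0900 for *TotA*. The part of the fat body and hemocytes in the differences of these 3 genes was not tested.

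All 24 genes kept their call when any single library was left out, with adjusted p-values in edgeR of up to 0.0155 for the genes higher in *D. mauritiana* and up to 0.0415 for those higher in *D. melanogaster*.

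**Figure D3:**
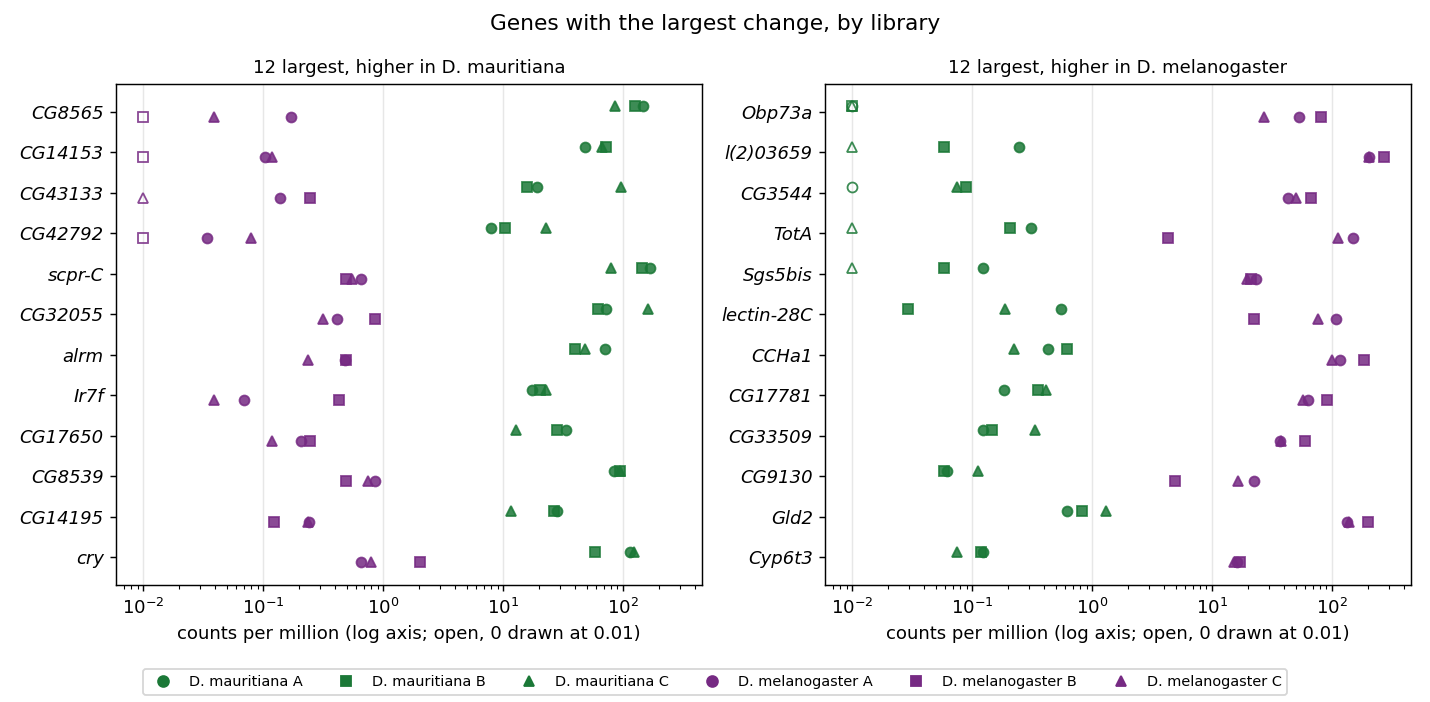
Level in each library, in CPM (log axis), of the 12 genes with the largest change in each direction. The species do not overlap for any gene, which was a condition for choosing them. *TotA*, *lectin-28C* and *CG9130* are lower in *D. melanogaster* B than in A and C.

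Among genes changed by a factor of 2 or more, the most abundant per kilobase of coding sequence in *D. mauritiana* were *Hsp70Ab*, *Obp44a*, *alphaTub84D*, *CG13044*, *obst-A* and *CG12279*. *Obp44a*, an odorant-binding protein gene, was at 1150, 720 and 604 CPM in *D. mauritiana* and at 101, 135 and 106 CPM in *D. melanogaster*, a 7.22-fold difference (log2-fold change -2.85 ± 0.28, edgeR adjusted p = 0.000935). *alphaTub84D*, an alpha tubulin gene, was at 1160, 1230 and 1370 CPM against 428, 417 and 482 CPM. The near-identical *alphaTub84B* was not called (log2-fold change -0.14 ± 0.15), and reads that fit both genes may have been split between them. *obst-A*, which encodes a chitin-binding organiser of the cuticle, was at 478, 537 and 448 CPM against 103, 143 and 117 CPM. The calls of *Hsp70Ab* and *CG12279* were lost without *D. melanogaster* C (edgeR adjusted p = 0.0651 and 0.0538), and an opposite-strand gene, *PolQ*, overlaps *CG12279*.

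In *D. melanogaster* the corresponding genes were *Prosalpha1R*, *Obp99a*, *CG31997*, *obst-B*, *CG13041* and *CG15083*. *Obp99a* was at 378, 437 and 425 CPM in *D. melanogaster* and at 78.0, 60.1 and 36.4 CPM in *D. mauritiana*, a 7.11-fold difference (log2-fold change 2.83 ± 0.28, edgeR adjusted p = 0.000997). *obst-B*, a relative of *obst-A*, was at 312, 399 and 344 CPM against 133, 112 and 71.9 CPM. A pair of odorant-binding proteins and a pair of obstructor proteins thus appeared among the abundant genes with opposite directions. *CG31997* was at 233, 337 and 218 CPM against 165, 116 and 101 CPM, and its call was lost without *D. mauritiana* B or C or *D. melanogaster* A or C, with edgeR adjusted p-values of 0.10, 0.0547, 0.0526 and 0.0523.

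Few of the genes that specify the eye and the antenna were called. None of the 10 tested retinal determination genes, 11 antennal identity genes, 8 proneural genes and 14 photoreceptor genes was called, with median log2-fold changes of 0.037, 0.002, -0.275 and -0.045. Over these lists and that of head selectors together, 3 of 53 tested genes were called (5.66 %, against 18.1 % of all genes tested), and the median absolute log2-fold change was 0.21, against 0.32. The 2 quartiles of tested genes with the highest mean counts had 12.2 % and 7.46 % called and median absolute log2-fold changes of 0.225 and 0.2. The lists were not compared with genes of like mean count. *ey*, at the top of the eye network, was at 198, 213 and 176 CPM in *D. mauritiana* and 151, 174 and 149 CPM in *D. melanogaster* (log2-fold change -0.31 ± 0.14, edgeR adjusted p = 0.184). *so* was at 85.7, 113 and 101 CPM against 110, 116 and 116 CPM, and *ato*, the proneural gene of the R8 photoreceptor, at 182, 229 and 139 CPM against 155, 216 and 169 CPM. The groups overlapped for *so* and *ato*, and for *ey* the lowest *D. mauritiana* value lay just above the highest of *D. melanogaster*.

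The 3 called genes of these lists act in the head region. *oc* (also known as *otd*), a homeobox gene of the ocelli and the dorsal head capsule, was at 19.3, 19.1 and 31.4 CPM in *D. mauritiana* and at 10, 8.23 and 10.7 CPM in *D. melanogaster* (log2-fold change -1.27 ± 0.25, edgeR adjusted p = 0.0135). *caup* and *ara*, the neighbouring Iroquois genes of dorsal eye identity, had log2-fold changes of -0.54 ± 0.12 and -0.50 ± 0.13. *oc* kept its call with any library left out, while *caup* and *ara* lost theirs without *D. mauritiana* B, *D. melanogaster* A or *D. melanogaster* C, and *ara* in 1 further case, with edgeR adjusted p-values of up to 0.10 and 0.163.

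Signalling pathways showed few called members. Of 106 tested genes in 7 pathway lists, 4 were called (3.77 %), all higher in *D. mauritiana*, and the median absolute log2-fold change was 0.17. Over all genes tested, 18.1 % were called. In the quartile with the highest mean count, 7.46 % were called, and the median absolute log2-fold change was 0.2. No comparison with genes of like mean count was made. None was called among 15 Dpp, 13 Notch, 10 JAK/STAT and 12 Hippo pathway genes. The Enhancer of split and Bearded families, which hold targets of Notch signalling, were listed apart from the pathway. Of their 15 tested genes, *BobA* and *E(spl)m6-BFM* were called higher in *D. mauritiana*. The share called was 13.3 %, against 18.1 % of all genes tested, and the median log2-fold change of the list was -0.468. *BobA* was at 3.39, 2.24 and 1.35 CPM in *D. mauritiana* and 0.31, 0.37 and 0.20 CPM in *D. melanogaster* (log2-fold change -2.99 ± 0.51, edgeR adjusted p = 0.00782) and kept its call with every library left out. *E(spl)m6-BFM* was at 0.99, 0.88 and 1.31 CPM against 0.07, 0.12 and 0.39 CPM and kept its call only without *D. melanogaster* C (edgeR adjusted p up to 0.14 in the others). The 13 uncalled members had log2-fold changes from -0.78 (*Ocho*) to -0.08 (*E(spl)mbeta-HLH*). The median of the list depended on the libraries. It was -0.33 without *D. mauritiana* A or *D. melanogaster* A and -0.74 without *D. melanogaster* B. With B as the only *D. melanogaster* library it was -0.04. *grk*, which encodes the Gurken ligand of the EGF receptor best known from the oocyte, was at 11.1, 10.5 and 8.38 CPM in *D. mauritiana* and 1.17, 0.68 and 1.02 CPM in *D. melanogaster* (log2-fold change -3.36 ± 0.31, edgeR adjusted p = 0.000776). *Wnt4*, a Wnt ligand, was at 26.3, 24.5 and 26.4 CPM against 10.6, 11.5 and 11.5 CPM (log2-fold change -1.20 ± 0.15, edgeR adjusted p = 0.00228). *aos*, a secreted inhibitor of the EGF receptor, and *rasp*, the acyltransferase that modifies Hedgehog, had log2-fold changes of -0.54 each, and both calls were lost without *D. mauritiana* B, *D. melanogaster* A or *D. melanogaster* C (edgeR adjusted p up to 0.136 and 0.114), that of *aos* also without *D. mauritiana* A.

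Other ligands and receptors of these pathways were not called. *hh*, the ligand secreted by differentiating photoreceptors, was at 68.8, 71.1 and 65.7 CPM in *D. mauritiana* and 67.1, 62.4 and 68.5 CPM in *D. melanogaster* (log2-fold change -0.05 ± 0.12). *dpp* was at 27.2, 28.4 and 30.6 CPM against 31.7, 26.2 and 30.6 CPM (log2-fold change 0.04 ± 0.15). *N*, the Notch receptor, varied more among libraries than between species, with 291, 395 and 650 CPM against 479, 278 and 446 CPM.

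Among 34 tested cell cycle genes, 6 were called higher in *D. melanogaster* and 1, the replication inhibitor *gem*, higher in *D. mauritiana*. The share called was 20.6 %, near the 18.1 % of all genes tested. The 6 genes act in DNA replication or mitosis, namely *Orc5*, *dpa*, *Mcm6*, *CycB*, *RnrL* and *Mcm5*, with log2-fold changes between 0.64 and 0.91. *dpa*, which encodes the Mcm4 helicase subunit, was at 231, 184 and 220 CPM in *D. melanogaster* and 112, 121 and 123 CPM in *D. mauritiana* (log2-fold change 0.84 ± 0.14, edgeR adjusted p = 0.00714). For *dpa*, *Mcm6*, *CycB*, *RnrL* and *Mcm5* the lowest *D. melanogaster* value was that of library B. The number called higher in *D. melanogaster* was 1 without *D. melanogaster* C, 1 without *D. mauritiana* B, 2 without *D. mauritiana* A, 2 without *D. melanogaster* A and 9 without *D. melanogaster* B. *gem* was not called without *D. mauritiana* A or B or *D. melanogaster* A or C (edgeR adjusted p up to 0.133).

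In the lists of ribosomal, oxidative phosphorylation and proteasome genes, 11 of 258 tested genes were called (4.26 %), and the median absolute log2-fold change was 0.19. The share called was 18.1 % over all genes tested and 7.46 % in the quartile with the highest mean count. Apart from the mitochondrial ribosomal genes *mRpL30* and *mRpL39*, the called members were named as paralogs of subunits with broad use. In the proteasome the 3 called genes, all higher in *D. melanogaster*, were *Prosalpha1R*, *Rpn13R* and *Rpt3R*, relatives of the subunits Prosalpha1, Rpn13 and Rpt3. *Rpn13R* was at 31.8, 51.2 and 24.7 CPM in *D. melanogaster* and at 2.96, 1.27 and 2.77 CPM in *D. mauritiana* (log2-fold change 3.97 ± 0.42, edgeR adjusted p = 0.00125). Of 78 tested cytoplasmic ribosomal protein genes, 4 were called. *RpS10a* and *RpL22-like* were higher in *D. mauritiana* (log2-fold changes -3.70 ± 0.49 and -2.75 ± 0.36) and *RpS5b* and *RpS19b* higher in *D. melanogaster* (1.67 ± 0.31 and 1.78 ± 0.40), and each has a paralog among the ribosomal protein genes. The *RpS19b* call was lost in 4 of the 6 fits with a library left out, with edgeR adjusted p-values of up to 0.0648. In oxidative phosphorylation the called genes were *ATPsynepsilonL* and *UQCR-11L*, both higher in *D. mauritiana*, and the call of the latter was lost without *D. mauritiana* A or B or *D. melanogaster* A or C (edgeR adjusted p up to 0.108).

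Genes for detoxification, cuticle and chemical senses had shares of calls above the 18.1 % of all genes tested, 2 of them near the 31.1 % of the quartile with the lowest counts. Cytochrome P450, glutathione transferase and UDP-glycosyltransferase genes, which modify and clear foreign compounds and hormones, had 31 called members of 101 tested (30.7 %). Cuticle protein and chitin genes had 37 of 86 (43.0 %), and odorant-binding proteins and chemoreceptors had 17 of 50 (34.0 %). The median absolute log2-fold changes were 0.87, 1.32 and 1.09. The median SE of the log2-fold change was 0.47, 0.47 and 0.58 in these groups of lists, against 0.23 over all genes tested, so that their members were also measured less precisely.

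The glutathione transferases of the D class lie side by side, and 5 of them were called higher in *D. mauritiana* within arm 3R from 12730361 to 12741909 of the *D. mauritiana* genome. *GstD2* was at 77.5, 75.2 and 50.5 CPM in *D. mauritiana* and 1.20, 1.04 and 0.90 CPM in *D. melanogaster*, a 64.0-fold difference (log2-fold change -6.0 ± 0.26, edgeR adjusted p = 5.52e-05). *GstD3* was at 341, 311 and 236 CPM against 19.2, 17.0 and 18.8 CPM, a 16.1-fold difference, and *GstD9* at 116, 73.1 and 69.7 CPM against 17.1, 20.4 and 18.9 CPM, a 4.59-fold difference. *GstD5* and *GstD6* did not exceed 1.57 and 0.97 CPM in any library, and their calls were lost without *D. melanogaster* C (edgeR adjusted p = 0.0574 and 0.0878), that of *GstD6* also without 4 other libraries in turn. *GstD1*, another gene of the cluster, was at 849, 734 and 612 CPM against 799, 796 and 859 CPM (log2-fold change 0.16 ± 0.17, edgeR adjusted p = 0.572). The genes of this cluster are similar in sequence, and reads that fit more than 1 of them may be assigned differently in the 2 species. The 9 called of 33 tested glutathione transferase genes fell to 5 without *D. melanogaster* C.

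Among 52 tested cytochrome P450 genes, 10 were called higher in *D. mauritiana* and 6 higher in *D. melanogaster*, with a median log2-fold change of 0.03. *Cyp301a1*, a P450 of cuticle formation, was at 40.4, 39.4 and 29.1 CPM in *D. mauritiana* and 7.26, 8.17 and 7.94 CPM in *D. melanogaster* (log2-fold change -2.22 ± 0.19, edgeR adjusted p = 0.000577). Besides *Cyp6t3*, *Cyp4e1* was higher in *D. melanogaster*, at 7.63, 5.04 and 6.57 CPM against 1.11, 0.88 and 0.71 CPM. *Cyp6g1*, known for insecticide resistance, was at 12.1, 1.78 and 11.1 CPM in *D. melanogaster* A, B and C and 1.29, 1.21 and 1.42 CPM in *D. mauritiana*, and thus followed the fat body markers (139 CPM in B and 4660 and 4140 CPM in A and C). Its call remained only without *D. melanogaster* B among the 6 fits with a library left out, with edgeR adjusted p-values of up to 0.113 in the others, and the part of the fat body was not tested. The 16 called P450 genes fell to 10 without *D. mauritiana* A or B, to 8 without *D. melanogaster* A and to 6 without *D. melanogaster* C, of which 2 were higher in *D. mauritiana*. Without *D. melanogaster* B, 9 were higher in *D. mauritiana* and 14 in *D. melanogaster*. Of the UDP-glycosyltransferases, *Ugt302K1* was at 53.6, 66.8 and 46.3 CPM in *D. melanogaster* and 5.24, 3.36 and 4.08 CPM in *D. mauritiana* (log2-fold change 3.73 ± 0.24, edgeR adjusted p = 0.000179).

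Cuticle proteins are laid down with chitin by the disc epithelium and by other larval epidermis. Of 60 tested cuticle protein genes, 11 were called higher in *D. mauritiana* and 15 higher in *D. melanogaster*. *TwdlT* was at 44.1, 47.2 and 67.3 CPM in *D. mauritiana* against 7.84, 9.03 and 8.34 CPM in *D. melanogaster*, and *Cpr67B* at 37.2, 32.8 and 22 CPM against 3.37, 3.19 and 3.81 CPM. In the other direction *Cpr97Ea* was at 19.5, 32.1 and 23.9 CPM in *D. melanogaster* against 11, 7.80 and 11.7 CPM in *D. mauritiana*. Its log2-fold change of 1.31 was far from the largest. *Cpr66Cb*, *Cpr64Ac*, *Cpr60D* and *Vajk1* were called with 5.71, 5.05, 5.03 and 4.49. *Cpr66Cb* lost its call without *D. mauritiana* B (edgeR adjusted p = 0.0539). Towards *D. mauritiana* the largest log2-fold change was that of *TwdlF*, at -6.03. *resilin*, which encodes an elastic cuticle protein, had 161 counts over the *D. mauritiana* libraries and 3 over those of *D. melanogaster*, a ratio of 49.4 after scaling (exact 95 % Poisson interval 16.9 to 239). The 26 calls fell to 14 without *D. melanogaster* C and to 15 without *D. mauritiana* B.

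Of 26 tested genes of chitin metabolism, 8 were called higher in *D. melanogaster* and 3 higher in *D. mauritiana*. *Cda4*, a chitin deacetylase, was at 699, 721 and 577 CPM in *D. mauritiana* and 168, 160 and 181 CPM in *D. melanogaster* (log2-fold change -1.97 ± 0.16, edgeR adjusted p = 0.000418). *Cht7* and *Cht5*, which encode chitinases, were higher in *D. melanogaster*. *Cht7* was at 96.8, 58.4 and 87.3 CPM against 19.3, 22.6 and 21.6 CPM, and *Cht5* at 9.29, 15.6 and 12.6 CPM against 1.42, 1.80 and 3.40 CPM. The deacetylase *Cda5* was also higher in *D. melanogaster*, at 17.6, 24.7 and 9.52 CPM against 1.97, 1.88 and 2.39 CPM. The 11 calls fell to 7 without *D. melanogaster* C.

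The antennal disc gives rise to the main olfactory organ, yet most chemoreceptor genes were hardly read at this stage, and 31 of 176 length-matched members could be tested. Of these, 8 were called higher in *D. mauritiana* and 5 higher in *D. melanogaster*. *Ir25a* and *Ir93a*, which encode co-receptors shared by many ionotropic receptors, were both higher in *D. mauritiana*, at 2.84 to 4.50 and 2.38 to 5.11 CPM against 0.47 to 1.07 and 0.32 to 1.11 CPM. *Ir25a* kept its call with every library left out (edgeR adjusted p up to 0.0463), whereas *Ir93a* lost it without *D. mauritiana* A, *D. melanogaster* A or *D. melanogaster* C (0.0621, 0.102 and 0.0967). *Ir76a* was higher in *D. melanogaster*, at 26.0, 44.9 and 26.5 CPM against 8.57, 7.24 and 6.47 CPM, and a gene on the opposite strand overlaps it. *Or85b* and *Ir64a* had no count in *D. mauritiana* and were at least 23.5-fold and 22.8-fold higher in *D. melanogaster*, taking 3 counts over the 3 libraries as the floor. The 13 calls fell to 8 without *D. melanogaster* C.

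Eye pigment genes were called in 1 direction. Of 19 tested members, 6 were higher in *D. mauritiana* and none was higher in *D. melanogaster*, although the median log2-fold change was 0.02. The share called was 31.6 %, against 18.1 % of all genes tested called in either direction and 10 % called higher in *D. mauritiana*. *cn*, which encodes kynurenine monooxygenase of brown ommochrome synthesis, was at 115, 119 and 147 CPM in *D. mauritiana* and 33.5, 46.4 and 37.5 CPM in *D. melanogaster*, a 3.25-fold difference (log2-fold change -1.70 ± 0.18, edgeR adjusted p = 0.00110). *st*, which encodes a transporter subunit that carries ommochrome precursors, was at 15.6, 8.98 and 20.6 CPM against 2.24, 3.87 and 2.28 CPM, and *cd*, needed for the conversion of ommochromes, at 13.7, 12.9 and 18.3 CPM against 4.85, 5.53 and 4.01 CPM. *se*, a glutathione transferase of red pteridine synthesis, was at 8.87, 7.62 and 5.99 CPM against 0.58, 0.68 and 0.71 CPM, and *GstO2* overlaps it on the opposite strand. *Pu* and *pn* were the other called members, and both calls were lost without *D. melanogaster* A or C, that of *Pu* also without *D. mauritiana* A and that of *pn* also without *D. mauritiana* B or C (edgeR adjusted p up to 0.0912 and 0.140). *w*, the partner of *st* in the transporter, was at 48.4, 38.5 and 51.9 CPM against 46.9, 60.9 and 50.1 CPM (log2-fold change 0.19 ± 0.17, edgeR adjusted p = 0.519).

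Of 19 tested phototransduction genes, 4 were called (21.1 %, near the 18.1 % of all genes tested), and the 4 were higher in *D. mauritiana*. Besides *cry*, they were *Rh2*, *santa-maria* and *ninaC*. *Rh2*, the rhodopsin of the ocelli, was near the limit of detection, with 70 counts over the *D. mauritiana* libraries and 2 over those of *D. melanogaster* (ratio 32.2, exact 95 % Poisson interval 8.91 to 266), and its call was lost without *D. melanogaster* A or C (edgeR adjusted p = 0.0578 and 0.0642). *santa-maria*, a scavenger receptor of carotenoid uptake, was at 37.4, 25.4 and 24.7 CPM against 8.32, 8.11 and 6.53 CPM, and *CG5973* overlaps it on the opposite strand. *ninaC*, a myosin of the photoreceptor, was no longer called without *D. melanogaster* C (edgeR adjusted p = 0.0935), where 2 calls remained in the list.

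Heat shock genes had 6 called members of 18 tested (33.3 %), against 18.1 % of all genes tested. All 6 were higher in *D. mauritiana*, a direction called for 10 % of all genes tested. The median log2-fold change of the list was -0.06. *Hsp68* was at 819, 355 and 344 CPM in *D. mauritiana* and 96.3, 70.7 and 101 CPM in *D. melanogaster*, a 5.66-fold difference (log2-fold change -2.50 ± 0.38, edgeR adjusted p = 0.00475). *Hsp70Ab* was at 4920, 2320 and 2640 CPM against 1290, 657 and 1120 CPM, and since near-identical copies of *Hsp70* exist, its count is uncertain. *Hsp67Bc*, *stv* and *DnaJ-1*, which encode chaperones or co-chaperones, had log2-fold changes of -1.94 ± 0.23, -1.13 ± 0.20 and -1.10 ± 0.17. They and *Hsp68* kept their calls with any library left out. *Hsp70Ab* lost its call without *D. melanogaster* C (edgeR adjusted p = 0.0651). *Hsp67Ba*, the remaining called member, had a log2-fold change of -0.51 and lost its call in 4 of the 6 fits (edgeR adjusted p up to 0.159). *D. mauritiana* A was the highest library for *Hsp68*, *Hsp70Ab*, *Hsp67Bc*, *stv* and *DnaJ-1*. *Hsp83*, the constitutive Hsp90 gene, overlapped between the species, at 1930, 1960 and 2720 CPM against 2870, 1710 and 2770 CPM.

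**Figure D4:**
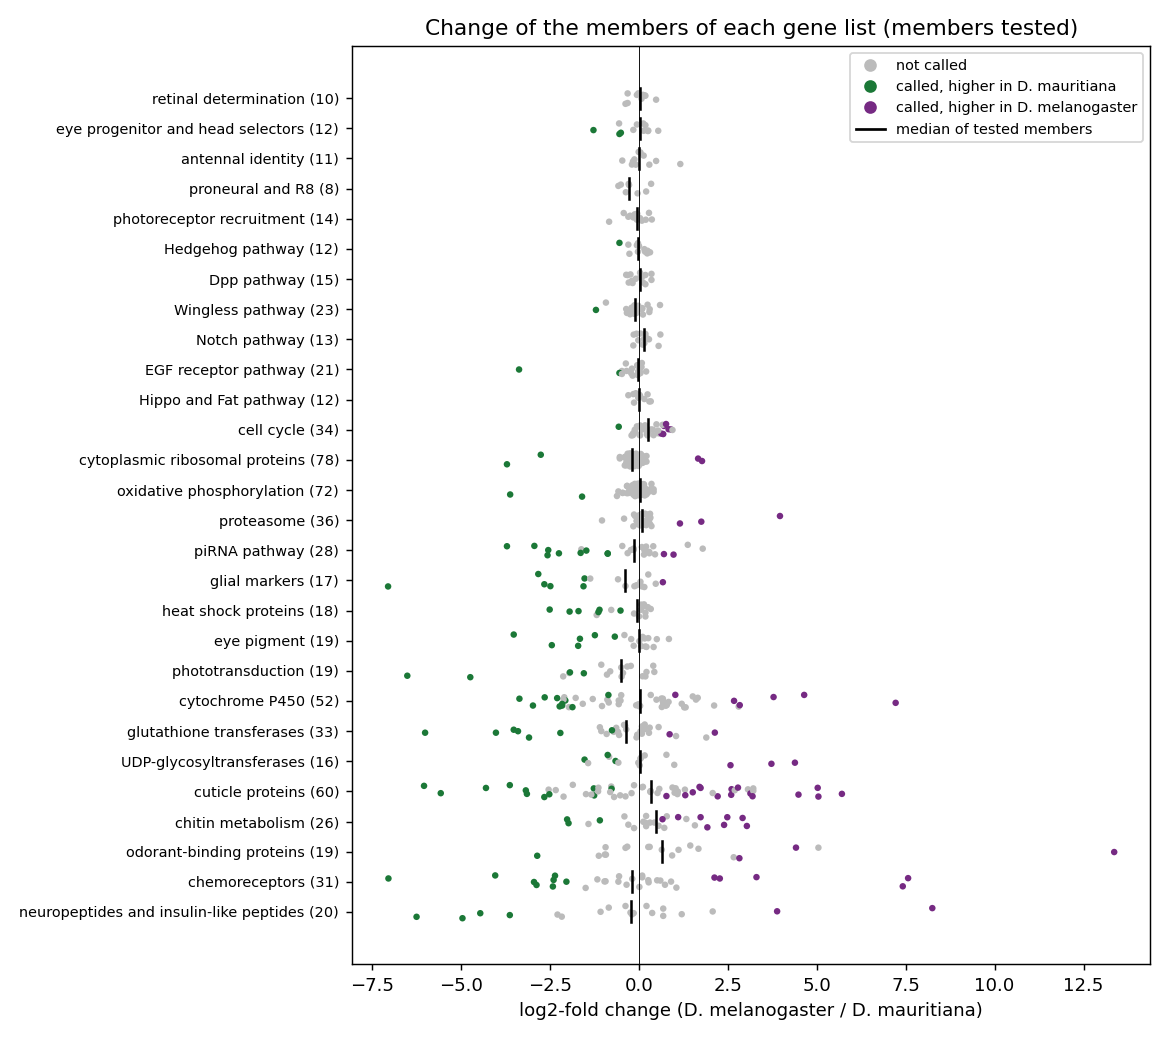
Log2-fold change of each tested member (points, number in brackets) of 28 gene lists, with the median of the list as a bar. The medians of the eye, antenna and signalling lists lie between -0.275 and 0.147, with single members such as *grk*, *oc*, *Wnt4* and *bab1* farther from 0. Called members of the detoxification, cuticle and chemosensory lists lie on both sides.

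The piRNA pathway silences transposons in the gonads. Of its 28 tested genes, 9 were called higher in *D. mauritiana* and 2 higher in *D. melanogaster*. These were 39.3 % of the list, against 18.1 % of all genes tested, and the median log2-fold change of the list was -0.14. *piwi*, which encodes the nuclear Argonaute protein of the pathway, was at 19.6, 16.1 and 21.6 CPM in *D. mauritiana* and 3.03, 3.32 and 3.34 CPM in *D. melanogaster*, a 5.91-fold difference (log2-fold change -2.56 ± 0.21, edgeR adjusted p = 0.000497). *del*, a nuclear factor of piRNA clusters, was at 83.4, 77.0 and 82.7 CPM against 11.3, 20.6 and 10.1 CPM. *mael*, *aub* and *krimp* were also higher in *D. mauritiana*, with log2-fold changes of -2.93 ± 0.33, -2.24 ± 0.31 and -1.47 ± 0.22. *cuff* and *nxf2* were higher in *D. melanogaster* by 0.98 ± 0.27 and 0.71 ± 0.16 on the log2 scale, and neither was called without *D. mauritiana* B, *D. melanogaster* A or *D. melanogaster* C. The 11 calls fell to 7 without *D. melanogaster* A and to 6 without *D. melanogaster* C, all of them higher in *D. mauritiana*. Of 3 listed germline and ovary markers, the 2 found, *aub* and *tj*, summed to 6.59 to 8.87 CPM in *D. mauritiana* and 1.11 to 1.61 CPM in *D. melanogaster*. Both are themselves called members of the piRNA list, so that their sum is not separate from it. The part of gonad tissue was not tested.

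In the related miRNA and siRNA machinery, 4 of 10 tested genes were called (40 %, against 18.1 % of all genes tested). *Dcr-2* and its partner *r2d2*, which load small interfering RNAs, were higher in *D. melanogaster* (log2-fold changes 1.21 ± 0.26 and 0.98 ± 0.14). *Dcr-1* and its partner *loqs*, which act on microRNAs, were higher in *D. mauritiana* (-0.47 ± 0.13 and -1.12 ± 0.15), with *loqs* on a model that keeps 54.5 % of the coding length and is overlapped by an antisense gene. *r2d2* was at 63.0, 67.3 and 63.5 CPM in *D. melanogaster* and 36.7, 29.4 and 32.0 CPM in *D. mauritiana*. The *Dcr-1* call was lost in each of the 6 fits with a library left out (edgeR adjusted p from 0.0598 to 0.198) and that of *Dcr-2* in 4 (up to 0.0853), whereas *r2d2* and *loqs* kept theirs.

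Glial genes differed in a mixed way. Of 17 tested glial genes, 6 were called higher in *D. mauritiana* and 1 higher in *D. melanogaster*. These were 41.2 % of the list, against 18.1 % of all genes tested. *repo*, the general marker of glia, was at 25.1, 22.8 and 26.1 CPM in *D. mauritiana* and 22.5, 24.0 and 21.8 CPM in *D. melanogaster* (log2-fold change -0.12 ± 0.14, edgeR adjusted p = 0.648). In contrast, *gcm* and *gcm2*, the transcription factors that start glial development, were at 19.2, 19.9 and 19.3 CPM and 15.8, 17.8 and 15 CPM in *D. mauritiana*. In *D. melanogaster* A, B and C they were at 1.69, 6.27 and 1.53 CPM and at 1.48, 3.87 and 1.65 CPM. *wrapper*, an immunoglobulin-family surface protein of glia, was at 20.3, 15.8 and 15.2 CPM against 5.98, 6.08 and 5.43 CPM, and *moody*, a receptor of the blood-brain barrier, at 13.8, 14.8 and 13.8 CPM against 21.3, 23.2 and 23.3 CPM. Without *D. melanogaster* C, *gcm*, *Gat* and *Mdr65* were no longer called (edgeR adjusted p = 0.0506, 0.0534 and 0.0536). *moody* was called without *D. mauritiana* C or *D. melanogaster* B and lost its call in the other 4 fits. The 8 glial markers summed to 335 to 458 CPM in *D. mauritiana* and 308 to 382 CPM in *D. melanogaster*.

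Of 10 tested brain neuroblast genes, *erm*, *wor* and *nab* were called higher in *D. mauritiana* and none was called higher in *D. melanogaster*, while the uncalled *insc*, *grh* and *brat* had log2-fold changes of 0.90, 0.40 and 0.08. The share called was 30 %, against 18.1 % of all genes tested. *erm* was at 2.46, 5.68 and 10.3 CPM in *D. mauritiana* against 0.45, 0.55 and 0.83 CPM in *D. melanogaster*. *wor* and *nab* lost their calls without *D. mauritiana* B, *D. melanogaster* A or *D. melanogaster* C, and *nab* also without *D. mauritiana* A or C (edgeR adjusted p up to 0.0567 and 0.179). The insulin-like peptide genes *Ilp2*, *Ilp3* and *Ilp5*, known from neurosecretory cells of the brain, did not exceed 0.18 CPM in *D. melanogaster*. In *D. mauritiana* A, B and C, *Ilp2* was at 7.64, 1.09 and 1.35 CPM, *Ilp3* at 2.71, 0.53 and 0.86 CPM and *Ilp5* at 5.24, 1.24 and 1.08 CPM, so that A was the highest library for each. Without *D. mauritiana* A the log2-fold changes moved from -4.95 to -3.55 for *Ilp2*, from -4.45 to -3.54 for *Ilp3* and from -6.24 to -5.18 for *Ilp5*. *Ilp2* and *Ilp3* lost their calls without *D. melanogaster* A or C (edgeR adjusted p from 0.0536 to 0.0732). *jhamt*, the juvenile hormone methyltransferase of the ring gland, was at 149, 63.4 and 30.6 CPM in *D. mauritiana* and 2.68, 0.43 and 3.22 CPM in *D. melanogaster* (log2-fold change -5.20 ± 0.81, edgeR adjusted p = 0.00524). A list of 13 genes of brain and ring gland secretory cells, *jhamt* and the insulin-like peptide genes among them, was chosen after the values had been seen. It summed to 912, 368 and 675 CPM in *D. mauritiana* A, B and C. In *D. melanogaster* A, B and C it summed to 221, 20.3 and 196 CPM, with B the lowest library, as for the fat body and hemocyte markers. Most of each sum came from members other than *jhamt* and the insulin-like peptide genes. Of its 11 tested members, 5 were called, all higher in *D. mauritiana*. The uncalled *dib*, *sad*, *Akh* and *Hug* had negative log2-fold changes, and *Dh44* and *Proc* had 0.22 and 0.69. The 4 neuroblast markers *dpn*, *wor*, *ase* and *mira* summed to 80.1 to 97.5 CPM against 53.1 to 86.7 CPM, and the species overlapped. The part of attached brain or ring gland in the differences of *alrm*, *cry* and *Obp44a* was not tested.

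Neuropeptide genes also changed in the other direction. *Nplp1*, a neuropeptide precursor, was at 28.0, 25.1 and 30.9 CPM in *D. melanogaster* and 2.10, 1.91 and 1.65 CPM in *D. mauritiana*, a 14.9-fold difference (log2-fold change 3.89 ± 0.21, edgeR adjusted p = 6.29e-05). Together with *CCHa1* it was among the 6 called of 20 tested neuropeptide genes, of which 3 remained without *D. melanogaster* A or C. The 6 were 30 % of the list, against 18.1 % of all genes tested. The dpr and DIP surface proteins, which pair neurons through their immunoglobulin domains, had 4 called members in each direction of 22 tested, led by *dpr18* at 13.6, 20.6 and 13.7 CPM in *D. melanogaster* and at most 0.26 CPM in *D. mauritiana*. These 8 calls were 36.4 % of the list, against 18.1 % of all genes tested. They fell to 5 without *D. mauritiana* C, to 3 without *D. melanogaster* A and to 2 without *D. melanogaster* C. Of the genes for neuronal differentiation, 4 of 22 tested were called higher in *D. mauritiana* and 1 higher in *D. melanogaster*. The share called, 22.7 %, was near the 18.1 % of all genes tested. The RNA-binding protein gene *fne* was at 7.58, 8.04 and 7.03 CPM in *D. mauritiana* and 1.99, 1.72 and 1.69 CPM in *D. melanogaster*, and kept its call with every library left out. Without *D. melanogaster* A or C, 2 and 1 of the 5 calls remained.

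Enzymes and inhibitors outside these groups were called as well. Of 18 tested serine protease inhibitor genes, 5 were called higher in *D. mauritiana* and 3 higher in *D. melanogaster*. These were 44.4 % of the list, against 18.1 % of all genes tested. Without *D. mauritiana* A, *D. melanogaster* A or *D. melanogaster* C, 5 calls in all remained. *Spn47C* was at 27.5, 20.6 and 24.0 CPM in *D. melanogaster* and 2.96, 2.74 and 1.5 CPM in *D. mauritiana* (log2-fold change 3.33 ± 0.30, edgeR adjusted p = 0.000723). *Ldh*, which encodes lactate dehydrogenase, was at 66.2, 49.7 and 68.6 CPM in *D. melanogaster* and 19, 20.1 and 21.9 CPM in *D. mauritiana* (log2-fold change 1.60 ± 0.17, edgeR adjusted p = 0.00124). The groups did not overlap for either gene.

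**Figure D5:**
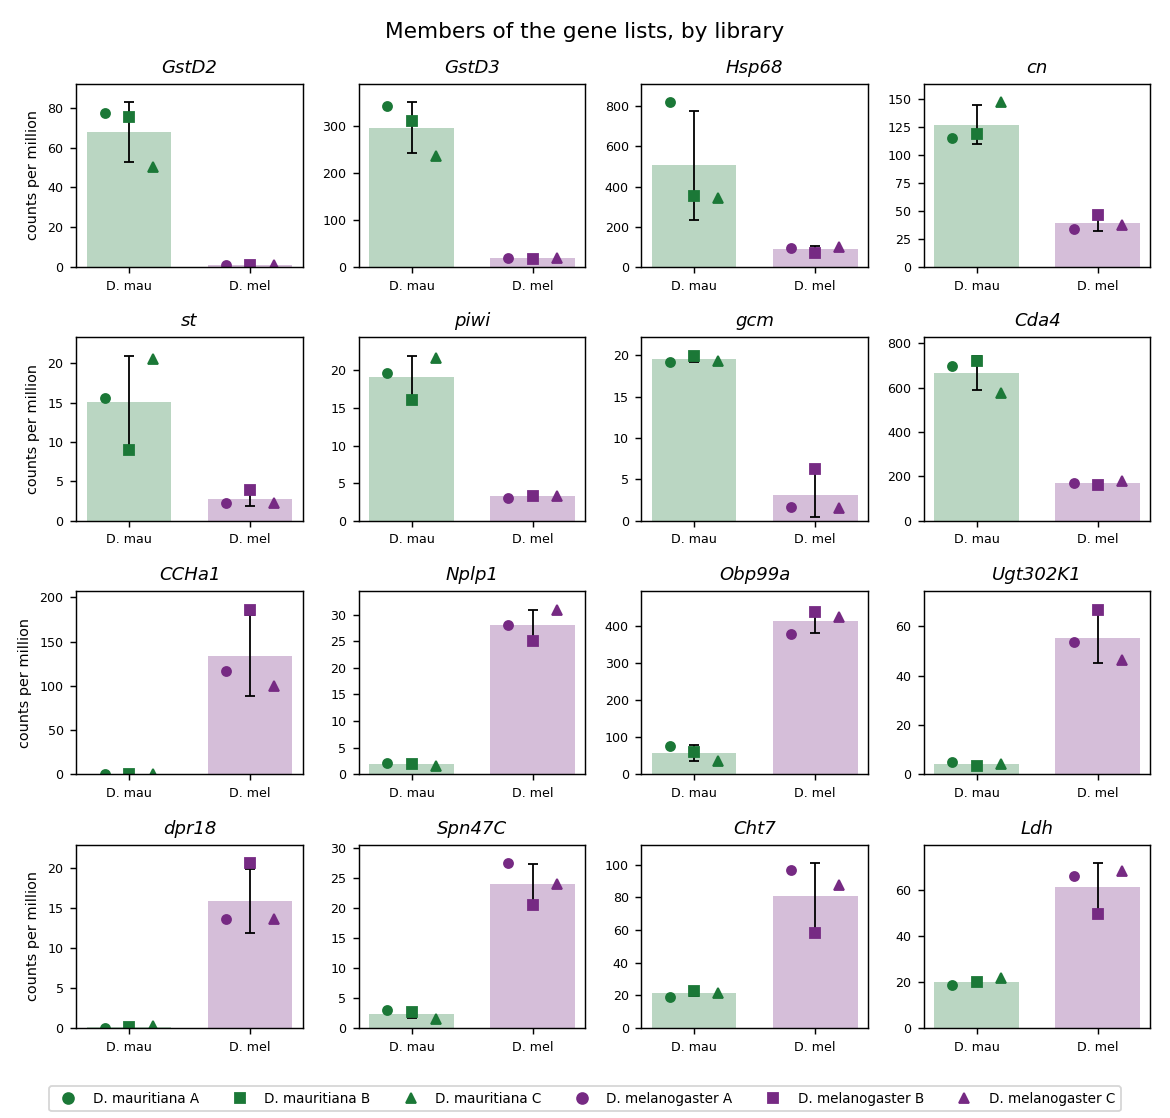
CPM in each library (points), with the mean (bar) and SD (error bar, n = 3), of 16 called members of the gene lists. The first 8 genes are higher in every *D. mauritiana* library and the last 8 are higher in every *D. melanogaster* library.

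Among 9 tested genes that mark other imaginal discs or segments, 3 Hox genes were called (33.3 %, against 18.1 % of all genes tested). *Scr*, which patterns the labial and first thoracic segments, was at 20.0, 7.86 and 7.07 CPM in *D. mauritiana* and 1.55, 0.92 and 1.42 CPM in *D. melanogaster* (log2-fold change -3.14 ± 0.49, edgeR adjusted p = 0.00554). *pb*, which specifies labial and maxillary structures, was at 2.65, 2.50 and 2.81 CPM against 0.65, 0.49 and 0.39 CPM. *abd-A*, a gene of the abdomen, was higher in *D. melanogaster*, at 14.4, 22.6 and 17.3 CPM against 3.88, 3.18 and 3.14 CPM (log2-fold change 2.41 ± 0.25, edgeR adjusted p = 0.00110).

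The calls of fat body, hemocyte and gut genes changed with the libraries left out. None of 10 tested fat body genes was called, although their median log2-fold change was 1.28. Without *D. melanogaster* B, 5 were called higher in *D. melanogaster*, and with B as the only library of its species, 4 were called higher in *D. mauritiana*. *PPO2*, a prophenoloxidase of crystal cells, was at 1200, 180 and 1090 CPM in *D. melanogaster* A, B and C and 133, 194 and 52.0 CPM in *D. mauritiana*, so that the groups overlapped although the gene was called (edgeR adjusted p = 0.0451). Without *D. melanogaster* B its adjusted p was 0.00887, and in the other 5 fits with a library left out it was not called (up to 0.127). *Tig*, which encodes tiggrin of the extracellular matrix, was at 211, 37.8 and 185 CPM in *D. melanogaster* and 16 to 18.9 CPM in *D. mauritiana*, and it lost its call without *D. mauritiana* B (edgeR adjusted p = 0.0568). The midgut protease genes *Jon65Aiii* and *Jon65Aiv* were at 21.8, 4.55 and 24.9 CPM and 39.8, 13 and 44.3 CPM in *D. melanogaster*, above all *D. mauritiana* libraries, which reached 3.44 and 7.52 CPM. Their calls were kept without *D. melanogaster* B (edgeR adjusted p = 0.00248 and 0.00974) and were both lost without *D. mauritiana* B, *D. melanogaster* A or *D. melanogaster* C. The 6 hemocyte, 5 fat body and 21 midgut markers all summed to less in B than in A and C.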

How the data were processed

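The authors mapped untrimmed 50 bp reads of each species with Bowtie2 to the coding sequences of that species, and deposited counts of reads per gene, summed with samtools 0.1.19 and not normalized, with gene lengths in nucleotides. These sequences came from reciprocal re-annotation with Exonerate 2.2, which passed the longest *D. melanogaster* isoforms (release 5.55) to the *D. simulans* genome, from there to the *D. mauritiana* genome, and back through the *D. simulans* set to *D. melanogaster*, so that the models compared were limited to what was found in *D. simulans* as well. Untranslated regions were not part of the reference, the kit does not mark strand, and *D. mauritiana* A contained bases of low quality. Reads that fit similar genes or overlapping genes were not separated.

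Counts were tested with the quasi-likelihood test of edgeR 4.0.16 (R 4.3.3) with TMM normalization on the 9767 genes kept by filterByExpr, between 3 libraries per species, and p-values were adjusted over all of them. Genes with a length difference above 49 bp were then left out. On counts simulated from the real means, with known changes in some genes, the procedure was tested before use. DESeq2 1.42.0 was run as an alternative, with the settings of the study. Symbols were found for 13065 of 13331 gene identifiers. Positions come from the alignment to the published *D. mauritiana* genome, and overlapping genes and chromosome arms from Ensembl annotation 115 of *D. melanogaster*. The authors' lists of differential expression and the qPCR values were not used here.

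Genes were named by rule, with exceptions stated. These were called, length-matched genes that averaged 100 or more counts in the libraries and did not overlap between species, of which the 12 largest changes and the 6 most abundant genes with a fold change of 2 or more were taken per direction. The defining members of the lists and genes measured again by the study (*piwi*, *alrm* and *Nplp1*) were added. The rule also held up to 4 called members per gene list, those with the largest changes. Not all of these are given in the text, for example not *Cyp6w1*, *Cyp4ad1* and *Cyp6a14* of the P450 list. Called members of a list other than those with its largest changes, uncalled pathway genes and members given for contrast were chosen after their values were seen. The gene lists and the compared genes were chosen with earlier results of these data known.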

Additional observations from a re-analysis of the deposited data

How the results depend on the processing

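With each library left out in turn, 841 to 1892 genes were called, of which 434 to 1027 were higher in *D. mauritiana* and 403 to 865 higher in *D. melanogaster*, and 785 to 1398 reached a fold change of 2. The lowest totals came without *D. melanogaster* C (841), *D. melanogaster* A (976) and *D. mauritiana* B (1033). With *D. melanogaster* A and C both left out, a setting chosen after seeing the data, 392 genes were called, 203 higher in *D. mauritiana* and 189 higher in *D. melanogaster*, and all 392 reached a fold change of 2. Fewer samples entered these fits. Among genes with models of equal length, a smaller set by construction, 1088 were called (601 and 487), and 760 reached a fold change of 2. With at least 10 counts required in every library, which removes genes absent from a species, 1187 were called, 493 of them higher in *D. melanogaster*, and 777 reached a fold change of 2. DESeq2 called 2404 genes (1256 and 1148) and included 99.7 % of the 1757 genes. RLE size factors, no filter on low counts, model length as an offset and the direct re-annotation called between 1713 and 1760 genes. With the replicate letter as a block, 1463 genes were called. The letters were not taken as a pairing, since the deviations of libraries with the same letter correlated at -0.237 (A), 0.202 (B) and 0.155 (C). Not every library correlated best with its own letter (0.390 for *D. mauritiana* C with *D. melanogaster* A). Of 230 called genes whose values were followed under each setting, those that a setting could give a value for kept their direction. Many lost their call, however. Of the 230, 105 were no longer called without *D. melanogaster* C, 85 without *D. melanogaster* A and 74 without *D. mauritiana* B. The smallest loss with a single library left out was 17, without *D. melanogaster* B.

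Genes with few reads limit the comparison, since a difference in them was detectable at this depth only when large. Each species was represented by 1 strain and 1 stage, and p-values measure the spread between samples of pooled discs. Counting intervals and floors cover counting error only.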

Other observations

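Paired-end libraries of *D. mauritiana* (D, E and F) and libraries of the *D. simulans* strain YVF (A, B and C), counted in another table and scaled separately, gave levels for the 24 genes with the largest changes. Read type and table differ, so that these levels are set beside those of the report as a description, with no test. The paired-end libraries are of the same *D. mauritiana* strain, and the gene models of all species came from the same reciprocal re-annotation. An error in a model could therefore recur in these libraries. The 12 genes higher in *D. mauritiana* were above all *D. melanogaster* libraries in each of the 3 paired-end libraries. *D. simulans*, a close relative of *D. mauritiana*, had a mean below a 10th of theirs for 6 of the 12. *CG14153* was at 49.7, 42.8 and 59.5 CPM in the paired-end libraries and 0.16, 0.16 and 0.10 CPM in *D. simulans*. *CG32055*, in contrast, was at 136, 138 and 116 CPM and at 169, 137 and 178 CPM in *D. simulans*. *cry* was between, at 9.98, 9.84 and 10.7 CPM in *D. simulans* against 62.2, 87.0 and 40.0 CPM. *alrm* was at 5.49, 9.91 and 6.29 CPM in the paired-end libraries, below the 40.2 to 71.2 CPM of the single-end libraries.

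The 12 genes higher in *D. melanogaster* were below all libraries of that species in every paired-end and every *D. simulans* library, at up to 3.18 and 2.06 CPM. *CCHa1* was at 0.29, 0.36 and 0.34 CPM in the paired-end libraries and 0.16, 0.12 and 0.23 CPM in *D. simulans*, against 100.0 to 186 CPM in *D. melanogaster*. *GstD2* was high in both relatives, at 102, 83.5 and 64.3 CPM and 122, 133 and 69.8 CPM. *piwi* differed between the relatives, at 25.5, 27.6 and 33.5 CPM in the paired-end libraries against 1.15, 1.65 and 1.49 CPM in *D. simulans*.

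Of the 382 called genes whose next tested neighbour was called, 216 (56.5 %) had a neighbour that changed in the same direction. Of all called genes, 55.4 % were higher in *D. mauritiana*, and the share expected for unrelated called genes was not computed. On chromosome 4, 11 of 75 tested genes were called, 8 of them higher in *D. mauritiana*, and the median log2-fold change was -0.24.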
